A study of Mus musculus with 12 samples.

Results

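Transcripts of 39 proteasome subunit genes were followed in sensory neuron fractions of mouse trigeminal ganglia (TG) and dorsal root ganglia (DRG). The genes were taken by symbol from the 22609 genes counted, as every Psma, Psmb, Psmc or Psmd symbol that ends in a number. They comprised 14 constitutive core subunits, 3 immune catalytic core subunits (Psmb8, Psmb9 and Psmb10), 2 core subunits known from testis or thymus (Psma8 and Psmb11), 17 subunits of the regulatory particle and 3 chaperones that help to assemble it (Psmd5, Psmd9 and Psmd10). Fractions enriched for neurons by density on Percoll were made from naive C57BL mice (C57BL/6J per the study's methods), with no transgene and no treatment. The labels give their age as 3 to 4 months, whereas the methods give a younger age in weeks. Females were in estrous phase per the study's methods. There were 3 libraries each of female TG, male TG, female DRG and male DRG, and the number of animals behind a library was not given in the sources used here.

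The proteasome degrades proteins that carry a chain of ubiquitin. Its core particle is a barrel of alpha and beta rings, and the catalytic beta subunits Psmb6, Psmb7 and Psmb5 cut after acidic, basic and hydrophobic residues, respectively. Interferon signalling and immune cells exchange them for Psmb9, Psmb10 and Psmb8, which changes the peptides offered to MHC class I molecules. The regulatory particle sits on the core, where its Psmc ATPases unfold substrates and its Psmd subunits bind ubiquitin and remove it. Neurons rely on this machinery for synaptic plasticity and for the removal of damaged protein in long axons.

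The 12 libraries held 7511765 to 15396090 reads in genes, and no pair of libraries agreed within counting noise. Xist had 9351 to 15691 reads in female and 4 to 11 in male libraries, as the labels of sex require. All 10 sensory neuron markers examined, among them Tubb3, Prph and Scn9a, were detected in each library, with a summed level of 5038 to 9292 CPM (counts scaled to library totals with TMM factors). Reads outside annotated genes made up 37.6% to 50.4% of reads in and outside genes. In bulk RNA, fewer cells of a type and less RNA per cell cannot be told apart. Nothing states that replicates came from separate animals, so p-values measure only the spread between these libraries.

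Sequences upstream of catalytic subunit genes are shown first, because the constitutive and immune catalytic subunits are compared below. RefSeq promoter windows of 300 bases (250 before and 50 after the start, GRCm38.p6) were given for 32 of the 39 genes, and those of Psmb5, Psmb6 and Psmb10 matched the mm9 genome exactly. Bases before the start are printed from the far end of the window up to the first base in an annotated mm9 exon. In the windows of Psmb8 and Psmb9 the farthest base already lay in an annotated exon, so none are printed. Capitals mark TGACNNNGC, the core of the antioxidant response element.
Psmb5, chr14:55236852-55237082, minus strand: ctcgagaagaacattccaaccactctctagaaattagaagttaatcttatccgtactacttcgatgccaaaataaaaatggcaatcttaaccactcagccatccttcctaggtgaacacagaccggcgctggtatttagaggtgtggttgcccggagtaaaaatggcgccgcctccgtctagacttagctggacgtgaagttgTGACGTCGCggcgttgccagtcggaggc
Psmb6, chr11:70338609-70338858, plus strand: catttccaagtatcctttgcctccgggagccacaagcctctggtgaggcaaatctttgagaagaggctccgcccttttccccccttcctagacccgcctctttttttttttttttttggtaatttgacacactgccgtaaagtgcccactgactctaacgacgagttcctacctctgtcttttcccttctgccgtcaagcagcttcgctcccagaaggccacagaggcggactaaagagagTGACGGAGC
Psmb10, chr8:108462293-108462542, minus strand: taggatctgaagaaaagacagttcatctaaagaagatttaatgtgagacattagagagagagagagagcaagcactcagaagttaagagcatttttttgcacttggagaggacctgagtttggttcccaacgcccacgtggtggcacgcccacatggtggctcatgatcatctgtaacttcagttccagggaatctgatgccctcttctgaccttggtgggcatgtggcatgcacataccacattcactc

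TGACNNNGC, searched on both strands, was in the windows of 5 of the 32 genes (Psmb5, Psmb6, Psmc6, Psmd9 and Psmd12), and in 12.4% of all 32851 promoters of the same length. The element is known to bind the transcription factors Nfe2l1 and Nfe2l2, of which Nfe2l1 raises proteasome subunit genes when degradation is impaired. The core of the interferon-stimulated response element was found in 3 of the 32 windows (Psmb3, Psmd4 and Psmd9) and in 3.44% of all promoters. Neither motif was in the windows of Psmb8, Psmb9 or Psmb10. The matches at Psmd9 did not overlap each other.

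The levels of the subunits relative to each other were read per length, as CPM per kilobase of the longest protein-coding transcript (RPKM). The highest member was Psmb4, a structural beta subunit, with a mean of 392 ± 199 RPKM (SD, n = 12). Psmb6 followed with 354 ± 194, and the next in order were Psmb1, Psmb2, Psmb7, Psma6 and Psma7, whose means of 251 to 314 RPKM lay within 1 SD of each other. The constitutive core had a median of 203 RPKM over its 14 subunits and the regulatory particle a median of 85.9 over its 17. Within the regulatory particle the ATPase Psmc5 was highest with 173 ± 68.4 and the lid subunit Psmd11 lowest with 13.3 ± 2.35 RPKM. The immune subunits were far lower, with 27.6 ± 9.35 for Psmb10, 15.3 ± 4.69 for Psmb8 and 3.51 ± 2.45 for Psmb9.

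Several levels, most of them in the core, are underestimates. The counter used by the authors leaves out by default reads that align to more than 1 place, and of the 50-base windows in the transcript, 63.5% in Psmb3, 60.3% in Psmb5, 56.6% in Psma5, 45.3% in Psma4 and 30.5% in Psma3 occurred elsewhere in the genome. Psma3 was the lowest constitutive core subunit, with 4.10 ± 2.11 RPKM on a transcript length of 2846 bases. Psma5, with a larger part of its windows shared, was at 45.4 ± 26.9 RPKM on 1239 bases. How far shared windows or the length used enter the Psma3 level was not tested. Over 10% of windows were shared in 9 members, while 22 members, all 3 immune subunits among them, had none. Leaving out the 9 members put the median of the core at 269 and that of the regulatory particle at 87.7 RPKM. Psmd11, with 19.1% of windows shared, was among those left out. Without them Psmd3 was lowest in the regulatory particle, with 25.1 RPKM. The annotation of the build used holds 2 overlapping entries for Psmb9 and an overlap of Psmb9 with Tap1, and whether reads of Psmb9 were set aside as ambiguous was not tested.

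**Figure D1:**
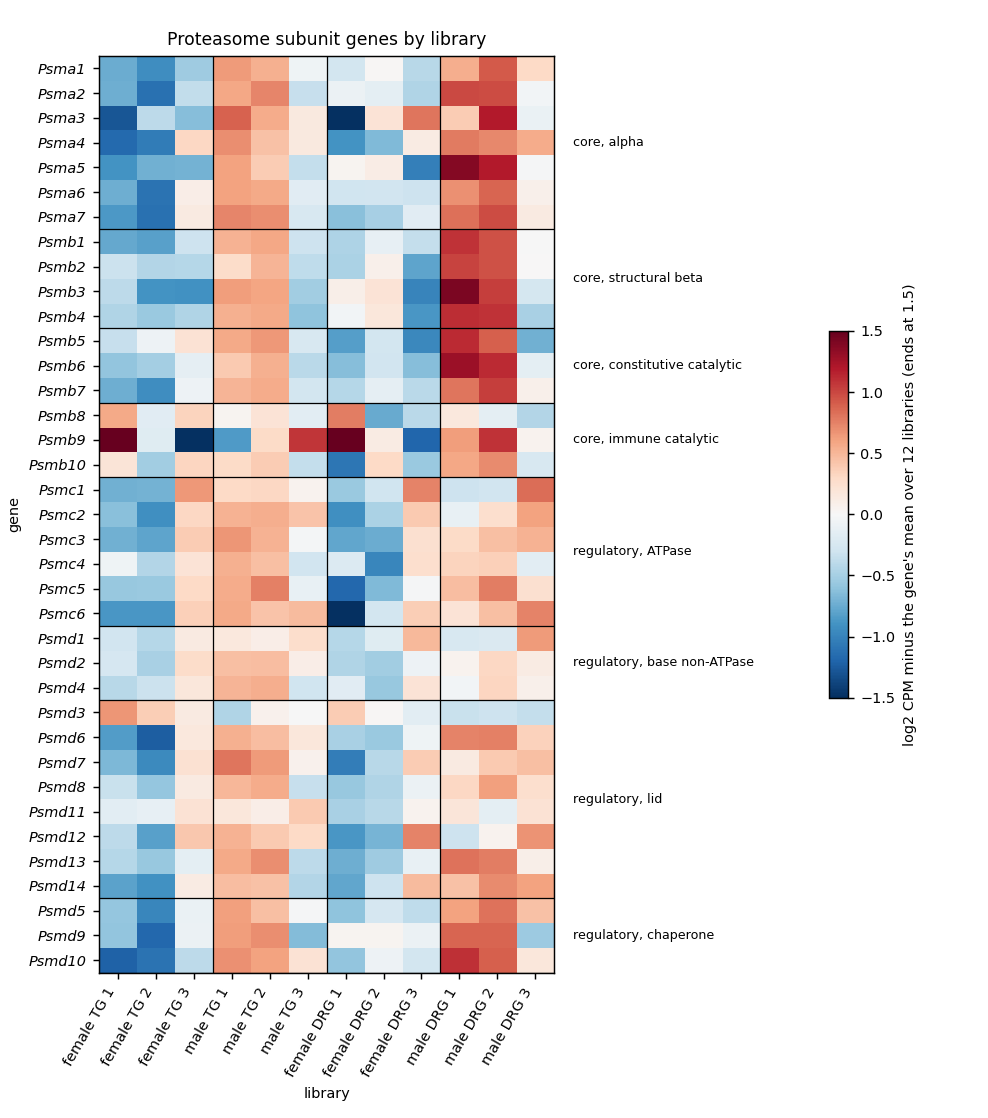
Level of 37 proteasome subunit genes (rows, grouped by role) in 12 libraries (columns), as log2 CPM minus the mean of the gene over the 12 libraries, with the color scale ending at 1.5. Male DRG 1 and 2 and male TG 1 and 2 are red for nearly all core subunits, female TG 1 and 2 are blue, and Psmb8, Psmb9 and Psmd3 do not follow them.

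Reads in the 39 genes made up 0.718% and 0.729% of reads in genes in male TG 1 and 2 and 0.781% and 0.793% in male DRG 1 and 2. The remaining 8 libraries, male TG 3 (0.506%) and male DRG 3 (0.597%) among them, ranged from 0.371% to 0.597%. The 95% Wilson intervals reached no more than 0.00510 points to either side and cover counting error only. Of the 37 members outside Psma8 and Psmb11, 12 were lowest of all libraries in female TG 2 and 11 in female DRG 1, while 12 were highest in male DRG 2 and 11 in male DRG 1. The same 4 male libraries with over 0.7% of reads in the members had the lowest share of reads outside genes (37.6% to 40.8%, against 42.6% to 50.4% in the other 8). The part of this difference in the results below was not tested.

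**Figure D2:**
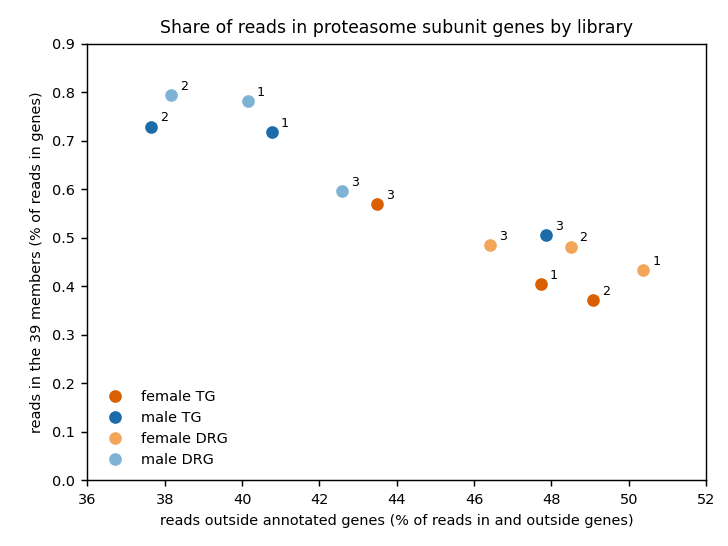
Percent of reads in genes that fell in the 39 proteasome subunit genes (vertical axis) against the percent of reads outside annotated genes (horizontal axis), 1 point per library, labelled with its replicate number. Male TG 1 and 2 and male DRG 1 and 2 lie at 0.718% to 0.793% and the other 8 libraries at 0.371% to 0.597%.

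The first comparison asked which subunits differed between the sexes in TG neurons. Log2 fold changes are female over male, so that negative values are higher in males. The 38 subunits that passed the low-count filter had a median of -0.67, with 35 below 0, while the median of all 14009 genes tested was 0.05 and 47.2% of them were below 0. By criteria adapted from the study (unadjusted p under 0.05, fold change above 2 and mean CPM above 1 in the higher sex, where the study set its level threshold in RPKM) 4 subunits were higher in males (Psma1, Psma2, Psma3 and Psmd10), against 2.26% of all genes, and 0 were higher in females, against 5.15% of all genes. At an adjusted p under 0.05 edgeR called 0 subunits, against 0.0357% of all genes, while DESeq2 called 7 subunits and 5.83% of all genes. At an unadjusted p under 0.05 there were 18 higher in males (9.79% of all genes) and 1 higher in females (10.9% of all genes), together 19 subunits against 20.7% of all genes. That number was 31 without female TG 3, 26 without male TG 3 and 6 to 8 without any of the other 4 TG libraries. The share of all genes at this threshold with libraries left out is not given here. By the adapted criteria, the male-higher share of all genes was 8.56% without female TG 3 and 4.06% without male TG 3. Without any of the other 4 TG libraries it was 1.05% to 2.99%. A level threshold of 1 RPKM in place of 1 CPM left 4 subunits past the criteria in TG (2.21% of all genes) and 12 in DRG (2.89%).

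The alpha subunits, which form the outer rings of the core and gate its entry, had the lowest median of the core groups in TG. All 7 had an unadjusted p under 0.05, with log2 fold changes of -1.23 to -0.82 and adjusted p of 0.154 to 0.220. Psma1 was at 104, 90.6 and 120.0 CPM in the female TG libraries and at 270.4, 251 and 166 CPM in the male ones. Every male library was above every female library, and the fitted level was 2.12-fold higher in males (log2 fold change -1.08 ± 0.25 (SE), adjusted p = 0.154). Psma2 was at 101, 77.0 and 130.4 CPM in females and at 252, 279.9 and 132 in males. The groups did not overlap, but male TG 3 lay only just above female TG 3 (log2 fold change -1.06 ± 0.30, adjusted p = 0.154).

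The 4 structural beta subunits had a TG median of -0.79, with Psmb3 at -0.98, Psmb1 at -0.88, Psmb4 at -0.69 and Psmb2 at -0.53. The 3 constitutive catalytic subunits had a median of -0.58 and 1 unadjusted p under 0.05 (Psmb7). In the regulatory particle the 6 ATPases had a median of -0.63, the 3 subunits of the base without ATPase activity -0.42 and the 8 lid subunits -0.58, and 5 of the 17 had an unadjusted p under 0.05 with a higher level in males. None of the 17 met the adapted criteria. Psmd10 (gankyrin), an assembly chaperone on the X chromosome, had the most negative value of the members, -1.33 ± 0.30. It was at 12.1, 13.02 and 21.3 CPM in female and 44.9, 42.6 and 32.5 CPM in male TG libraries, without overlap (2.51-fold higher in males, adjusted p = 0.154).

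Psmd3, a scaffold subunit of the lid, went the other way. It was at 83.0, 67.6 and 57.5 CPM in female TG and at 38.4, 54.9 and 52.1 CPM in male TG libraries, with no overlap (log2 fold change 0.57 ± 0.26, adjusted p = 0.238). In DRG it was at 68.0, 52.9 and 47.0 CPM in females and 41.5, 42.3 and 41.0 CPM in males, again without overlap (0.44 ± 0.29, adjusted p = 0.588). After a correction of each library for exon GC content and length the Psmd3 values were -0.05 in TG and 0.10 in DRG. In TG, 10 subunits did not overlap between the sexes and were higher in males (12.6% of all genes), and Psmd3 alone did so in the female direction (11.2% of all genes).

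Female TG 3 and male TG 3 lay closer to the other sex than their group did, and the count of called subunits rested on them. Without female TG 3, 19 subunits met the criteria, against 8.56% of all genes, and at an adjusted p under 0.05 there were 22 of the 38 subunits, beside 23.6% of all genes. Without male TG 3, 13 met the criteria (4.06% of all genes), and without male TG 1 there was 1 (1.05%). After the GC and length correction the TG median was -0.33, with 30 of 38 subunits below 0, and 0 met the criteria (0.651% of all genes). Members had short transcripts, with a median of 1518 bases against 3100 for all genes tested in TG. The correction used exon-union length, with medians of 2326 and 3803 bases, respectively. How far length or RNA quality enters the sex difference was not tested.

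**Figure D3:**
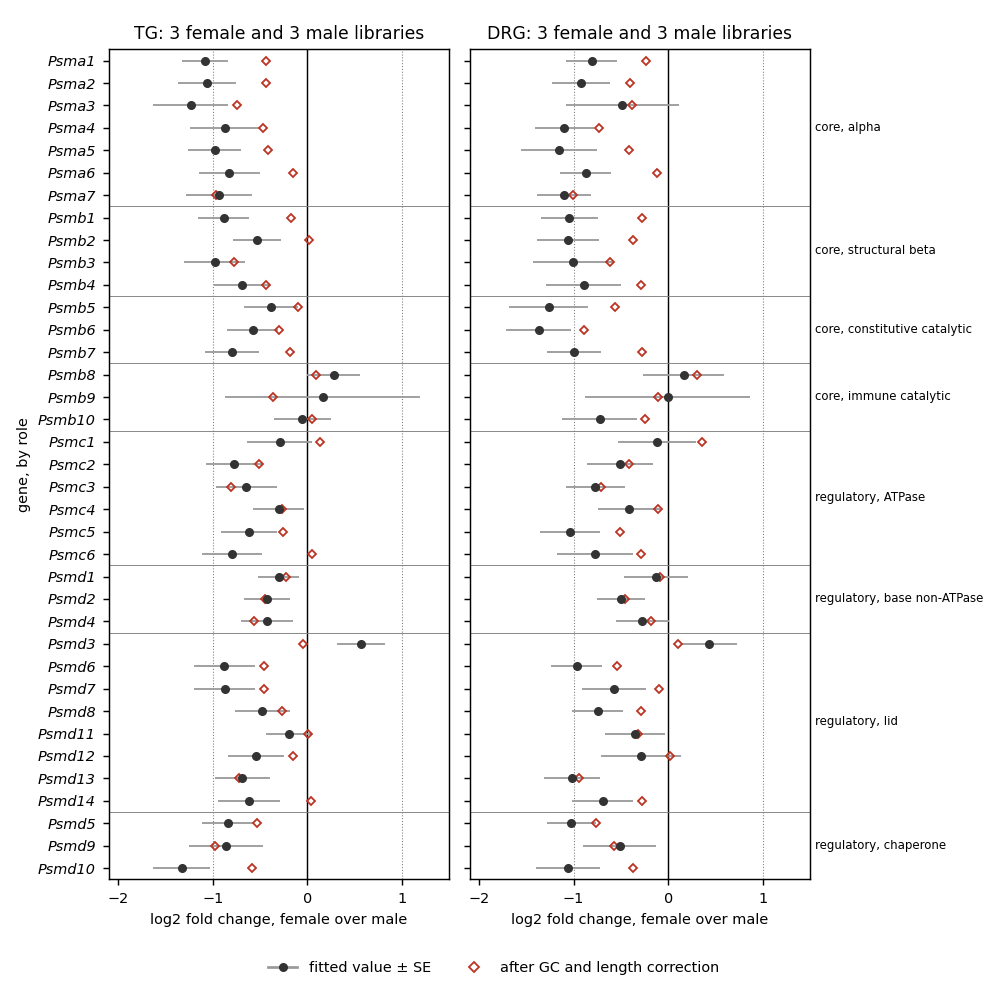
Log2 fold change of females over males for 37 subunits by role in TG (left) and DRG (right), from 3 libraries per sex. Filled points are fitted values with their SE, open diamonds the values after GC and length correction, and dotted lines mark a fold change of 2. Most filled points lie left of 0, and most diamonds lie closer to 0 than the filled points. The immune subunits lie near 0, except for Psmb10 in DRG (-0.73 ± 0.40).

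In DRG the same question gave a median of -0.77 over the 37 subunits that passed the filter, with 35 below 0, against a median of 0.02 over 13963 genes, of which 48.6% were below 0. By the adapted criteria 12 subunits were higher in males, against 2.96% of all genes, and 0 were higher in females, against 2.01%. They were Psma4, Psma5, Psma7, Psmb1, Psmb2, Psmb3, Psmb5, Psmb6, Psmc5, Psmd5, Psmd10 and Psmd13. At an adjusted p under 0.05 edgeR called 0 subunits (0.0358% of all genes), and DESeq2 called 12 and 2.49% of all genes. At an unadjusted p under 0.05 there were 20 subunits higher in males (8% of all genes) and 0 higher in females (3.85%), together 20 against 11.8% of all genes. There were 16 subunits without overlap that were higher in males (9.63% of all genes) and 1, Psmd3, that was higher in females (7.85%).

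The constitutive core led the DRG values, with a median of -1.03 and 13 of 14 unadjusted p under 0.05, while the regulatory particle had a median of -0.51 and 5 of 17. Psmb6, whose site cuts after acidic residues, had the most negative DRG value of the members. It was at 162, 207 and 162 CPM in females and at 616, 549 and 228 CPM in males, which did not overlap (2.59-fold higher in males, log2 fold change -1.37 ± 0.34, adjusted p = 0.307). Psma7, an alpha subunit, was at 133, 146 and 183 CPM in female and 366, 407 and 227 CPM in male DRG libraries (log2 fold change -1.10 ± 0.29, adjusted p = 0.307). For both genes male DRG 1 and 2 were well above the other libraries, and male DRG 3 lay nearer to the females.

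The chaperone Psmd5, which holds ATPases during assembly of the base, was at 96.7, 124 and 113 CPM in female and 223, 260.0 and 199 CPM in male DRG libraries. Its groups were well apart (log2 fold change -1.02 ± 0.26, adjusted p = 0.307). Psmd10 was at 18.6, 26.6 and 23.0 CPM in female and 59.7, 52.2 and 31.4 CPM in male DRG (-1.06 ± 0.34, adjusted p = 0.312). It was the 1 subunit that met the criteria in both ganglia. Psma1, Psma2, Psmb1, Psmd5, Psmd6 and Psmd10 did not overlap between the sexes in either ganglion and were higher in males in both. The shares of all genes that met the criteria or did not overlap in both ganglia are not given here. Whether the repeat across ganglia is particular to these subunits was not tested.

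The DRG count also moved with single libraries and with the correction. It was 17 without male DRG 3 (5.57% of all genes), 7 without female DRG 1 (3.17%), and 5 without male DRG 1 (1.51%) or without male DRG 2 (1.30%). After the GC and length correction the median was -0.32 and only Psma7 met the criteria (0.957% of all genes), with a value of -1.01. The correction used exon-union length, which for Psma7 was 3072 bases, against 914 bases for its longest coding transcript. Whether Psma7 would keep this value under a correction by transcript length was not tested. Scaling by library totals alone moved the median of all genes up, from 0.02 to 0.19 in DRG and from 0.05 to 0.16 in TG. It left 2 subunits past the criteria in each ganglion (1.18% of all genes in DRG and 1.16% in TG). The medians of the members were then -0.62 in DRG and -0.54 in TG.

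The catalytic pairs were compared in detail. In TG the constitutive subunits were higher in male TG 1 and 2, and male TG 3 lay within the female range. Psmb5, the chymotrypsin-like subunit, was at 35.6, 42.7 and 52.3 CPM in female and 67.0, 70.9 and 38.0 CPM in male TG (log2 fold change -0.38 ± 0.29, adjusted p = 0.459). Psmb6 was at 167, 178 and 230.5 CPM in female and 332, 364 and 191 CPM in male TG (-0.58 ± 0.27, adjusted p = 0.248). Psmb7, the trypsin-like subunit, was at 172, 149 and 271 CPM in female and 404, 419 and 236 CPM in male TG (-0.80 ± 0.29, adjusted p = 0.183).

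In DRG male DRG 1 and 2 again had the highest levels of the 3 subunits. Psmb5 was at 25.3, 37.2 and 23.0 CPM in female and 97.9, 83.5 and 27.3 CPM in male DRG (-1.27 ± 0.42, adjusted p = 0.317), with male DRG 3 inside the female range. Psmb7 was at 211, 260.2 and 215 CPM in female and 497, 583 and 301 CPM in male DRG, with no overlap (-0.99 ± 0.29, adjusted p = 0.307). The sex difference in TG minus that in DRG was 0.86 ± 0.55 (SE, log2 scale) for Psmb5, 0.76 ± 0.46 for Psmb6 and 0.17 ± 0.43 for Psmb7, none of which passed the test of the interaction.

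No immune subunit had an unadjusted p under 0.05 for sex in either ganglion, and all 3 overlapped between the sexes in both. Psmb8, which replaces Psmb5, was at 35.3, 21.1 and 30.0 CPM in female and 24.6, 27.6 and 21.3 CPM in male TG (0.28 ± 0.28, adjusted p = 0.595). In DRG it was at 40.4, 14.1 and 18.0 CPM in female and 26.5, 21.5 and 17.5 CPM in male libraries (0.16 ± 0.43, adjusted p = 0.929). The DRG value turned to -0.44 without female DRG 1, the library with the highest level of all 12.

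Psmb10, which replaces Psmb7, was at 37.7, 23.1 and 41.2 CPM in female and 40.4, 43.0 and 25.7 CPM in male TG (-0.05 ± 0.30, adjusted p = 0.938). In DRG it was at 15.6, 40.6 and 22.5 CPM in female and 49.5, 54.0 and 27.98 CPM in male libraries (-0.73 ± 0.40, adjusted p = 0.496), so that of the immune subunits it came nearest to the pattern of the core. Psmb9, which replaces Psmb6, rested on few reads. It had 121, 36 and 2 counts in female TG, 20, 58 and 70 in male TG, 85, 40 and 17 in female DRG and 54, 74 and 43 in male DRG, and its log2 fold changes were 0.16 ± 1.03 in TG and -0.01 ± 0.87 in DRG.

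**Figure D4:**
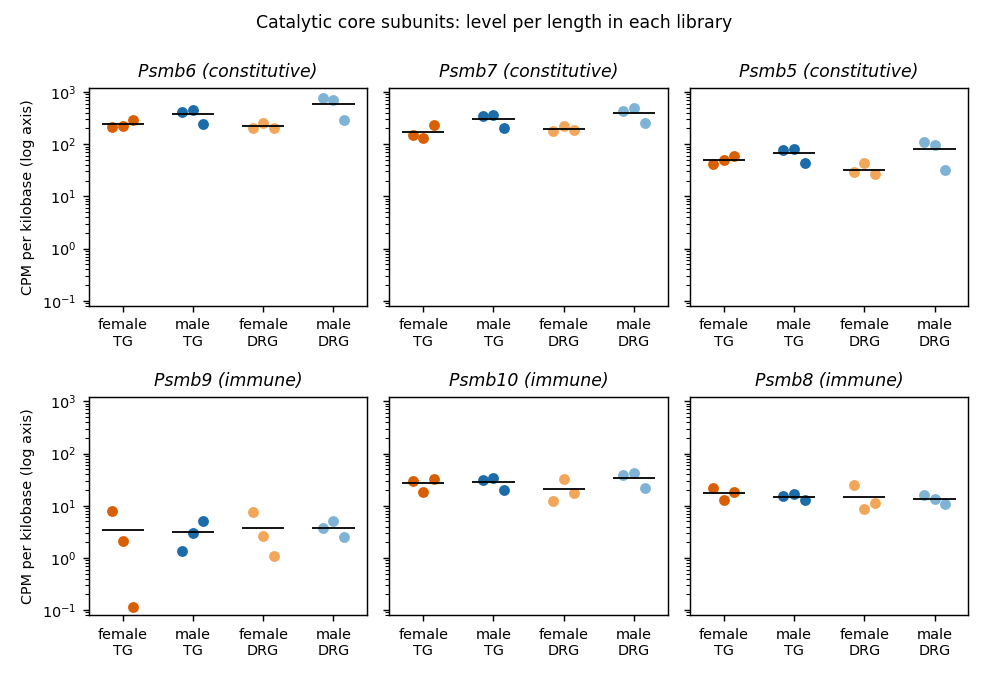
Level per length (CPM per kilobase, log axis) of the constitutive catalytic subunits (top) and of the immune subunits that replace them (bottom), with 1 point per library and a line at the group mean (n = 3). Psmb6, Psmb7 and Psmb5 lie higher in most male libraries, and Psmb8, Psmb9 and Psmb10 overlap between the sexes.

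Set against the constitutive subunits, the immune subunits took a larger share in females. Their part of the summed RPKM of the 6 catalytic subunits was 12.95%, 7.67% and 8.04% in female TG and 5.43%, 5.64% and 7.32% in male TG. In DRG it was 9.73%, 7.59% and 6.72% in females and 4.31%, 4.52% and 5.77% in males. Within each ganglion every female library was above every male library. The mean log2 ratio of immune to constitutive level was -3.28 ± 0.47 in female and -3.95 ± 0.25 in male TG, and -3.54 ± 0.30 in female and -4.30 ± 0.24 in male DRG (SD, n = 3). With single libraries left out the female minus male difference in TG was 0.40 (without female TG 1) to 0.82 (without female TG 2). The summed immune level overlapped between the sexes, with 33.3 to 59.2 RPKM in female and 38.5 to 53.7 in male TG, and 29.9 to 44.6 in female and 35.3 to 60.8 in male DRG. The summed constitutive level was 398 to 583 RPKM in female and 487 to 899 in male TG, and 414 to 527 in female and 576 to 1312 in male DRG, where the groups did not overlap.

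The GC and length correction narrowed this difference. The female minus male log2 ratio went from 0.67 to 0.23 in TG, where the corrected libraries overlapped, and from 0.76 to 0.52 in DRG, where they did not. By pair, Psmb10 over Psmb7 did not overlap in TG, with a Psmb10 share of 12.2% to 16.7% in females and 8.37% to 9.05% in males, and it overlapped in DRG. The shares of Psmb8 with Psmb5 and of Psmb9 with Psmb6 overlapped between the sexes in both ganglia.

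Immune cells carry the immune subunits, so their markers are given beside this result. The summed level of 10 macrophage markers, C1qa and Csf1r among them, was 270.4 to 536 CPM in female and 140.2 to 286 CPM in male TG, and 161 to 393 CPM in female and 158 to 196 CPM in male DRG. Markers of T, B and NK cells were near 0, with a sum of 0.0788 to 6.42 CPM over 8 genes and up to 7 of them at 0 in a library. Their sum was highest in female DRG 1, where Psmb8 was highest, and within TG in female TG 1, where Psmb8 and Psmb9 were highest. The sum was next highest in male DRG 3 (4.49 CPM), where Psmb8 was at 17.5 CPM. It was lowest in female TG 3 (0.0788 CPM), where Psmb8 was at 30.0 CPM. The macrophage sum was highest in female TG 2 (536 CPM) and, within DRG, in female DRG 2 (393 CPM), where Psmb8 was at 21.1 and 14.1 CPM, the latter its lowest level of the 12 libraries. The part of immune cells in the ratio was not tested.

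**Figure D5:**
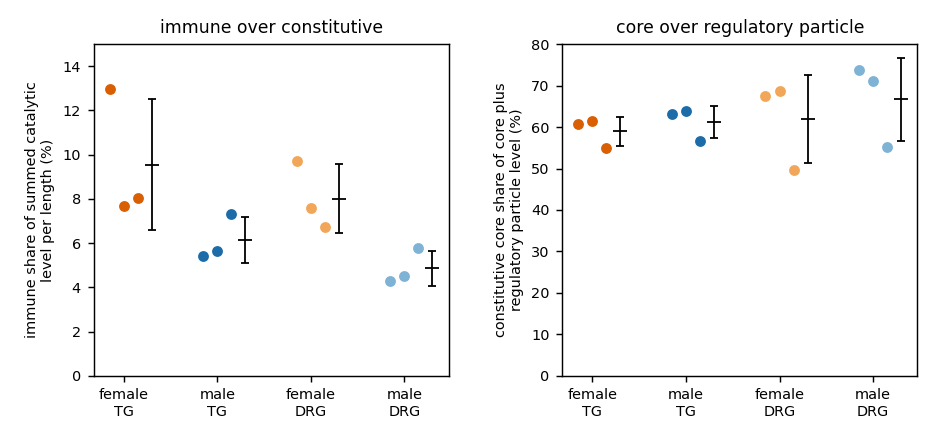
Left, share of the 3 immune subunits in the summed level per length of the 6 catalytic subunits (percent). Right, share of the constitutive core in the summed level per length of core and regulatory particle (percent). Points are libraries in order of replicate number and bars show mean ± SD (n = 3). The immune share does not overlap between the sexes within a ganglion, and the core share does.

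The balance of core and regulatory particle did not separate the sexes. The log2 ratio of the summed RPKM of the 14 constitutive core subunits to that of the 17 regulatory subunits was 0.63, 0.67 and 0.29 in female TG and 0.77, 0.82 and 0.39 in male TG. In DRG it was 1.05, 1.13 and -0.01 in females and 1.496, 1.30 and 0.30 in males. The groups overlapped in both ganglia, and the female minus male differences of -0.13 in TG and -0.31 in DRG were smaller than the SD within groups (0.22 and 0.64). After the GC and length correction they were 0.036 and -0.092. With single libraries left out they ranged in TG from -0.27 (without male TG 3) to -0.012 (without female TG 3), and in DRG from -0.68 (without male DRG 3) to 0.058 (without female DRG 3), where the sign turned. In each of the 4 groups the library numbered 3 had the lowest ratio. The same held after the GC and length correction, with 0.37, 0.50, 0.10 and 0.33 in the libraries numbered 3 of female TG, male TG, female DRG and male DRG.

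The libraries numbered 3 differed by subunit. Psmb4 was at 405 and 469.9 CPM in female DRG 1 and 2 and at 227 in female DRG 3, and at 895 and 885 CPM in male DRG 1 and 2 and at 297 in male DRG 3. The ATPase Psmc1 went the other way, with 68.2 and 81.9 CPM in female DRG 1 and 2 and 169 in female DRG 3, and with 80.9 and 82.1 CPM in male DRG 1 and 2 and 179 in male DRG 3. These genes were chosen after their values were seen. Over all genes the libraries numbered 3 were also closer to each other than to the other libraries of their own group. Whether the numbers mark a shared preparation is not given in the sources used here.

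TG and DRG were compared over both sexes in 1 model of the 12 libraries. The 38 subunits tested had a median log2 fold change (TG over DRG) of -0.11, against -0.01 over 14829 genes. At an adjusted p under 0.05 edgeR called 0 subunits, against 0.964% of all genes, and DESeq2 also called 0. By the adapted criteria 1 subunit, Psma8, was higher in TG (1.52% of all genes) and 0 in DRG (1.19%). No subunit was without overlap between the ganglia, against 0.998% of all genes higher in TG and 0.364% higher in DRG. At an unadjusted p under 0.05 there were 2 (8.83% of all genes), Psma5 higher in DRG (4.18%) and Psma8 higher in TG (4.65%), and 23 of the 38 were below 0 (51.0% of all genes). The 2 became 10 without male DRG 3, 9 without female TG 3, 4 without female DRG 3 or without male TG 1, and 1 to 3 without any of the other 8 libraries. The share of all genes at this threshold with libraries left out is not given here. At an adjusted p under 0.05, leaving out single libraries gave 0 subunits each time, against 0.506% to 1.52% of all genes. Psma5 was at 26.3, 29.7 and 30.0 CPM in female TG and 74.1, 63.3 and 38.1 in male TG, against 50.1, 52.8 and 24.1 CPM in female DRG and 127, 112 and 48.2 in male DRG (-0.63 ± 0.26, adjusted p = 0.441). The ganglia overlapped, with the highest levels in the male libraries numbered 1 and 2 of each.

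By role, all 7 alpha and all 4 structural beta subunits had values below 0 (lower in TG), with medians of -0.36 and -0.38, while the regulatory particle had a median of 0.04. Besides Psma5, the smallest p among subunits lower in TG belonged to Psma1 (-0.36 ± 0.18) and Psmb3 (-0.57 ± 0.28), and besides Psma8 the smallest among those higher in TG to Psmd3 (0.27 ± 0.18) and Psmd2, a scaffold of the base (0.20 ± 0.17). Psmd10 was at -0.41 ± 0.23. Of the catalytic subunits Psmb5 was at 0.18 ± 0.27, Psmb6 at -0.27 ± 0.23, Psmb7 at -0.30 ± 0.21, Psmb8 at 0.21 ± 0.27, Psmb9 at -0.21 ± 0.72 and Psmb10 at 0.05 ± 0.27, each of these with an adjusted p of 0.600 or more. The median of all 38 reached -0.29 without female TG 3 and 0.01 without female DRG 3. In the test of whether the sex difference differed between the ganglia, edgeR called 0 subunits at an adjusted p under 0.05 (0 of 14829 genes, 0.00%), DESeq2 called 0, and 0 had an unadjusted p under 0.05 (1.97% of all genes).

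The 2 subunits known from other tissues were barely detected. Psma8, an alpha subunit of testis that replaces Psma7, had 14, 20 and 27 counts in female TG and 25, 38 and 5 in male TG, against 0 in each female DRG library and 16, 4 and 0 in male DRG (adjusted p = 0.273 for TG against DRG). The female DRG counts of 0 allow a level of up to 0.242 to 0.399 CPM, set by 3 counts. Psma8 was not tested for sex in DRG. Psmb11, the catalytic subunit of thymic epithelium, had 5 and 8 counts in female TG 1 and 2, 6 in male DRG 2 and 0 in the other 9 libraries, and passed the filter in none of the comparisons.

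Genes that act with the proteasome were taken from lists. Of 20 other proteasome genes tested in TG (activators, assembly factors, deubiquitinases), 6 had an unadjusted p under 0.05, each higher in males (9.79% of all genes). They were Pomp, Psmg2, Psmg3, Txnl1, Uchl5 and Usp14. The list had a median of -0.47, and after the GC and length correction one of -0.05, with 10 genes below 0. Uchl5, a deubiquitinase of the regulatory particle, was at 24.6, 21.2 and 39.3 CPM in female and 68.6, 61.1 and 56.5 CPM in male TG (-1.09 ± 0.28, adjusted p = 0.154). It and the assembly chaperone Psmg3 (-1.71 ± 0.61, adjusted p = 0.180) met the adapted criteria, against 2.26% of all genes. Pomp, which guides core assembly, was at -0.61 ± 0.25 in TG and -0.85 ± 0.33 in DRG. In DRG the list had a median of -0.52, with 2 genes, Pomp and Txnl1, past an unadjusted p of 0.05. Both were higher in males (8% of all genes). After the GC and length correction the DRG median of the list was -0.01, with 11 genes below 0. The interferon-induced activators Psme1 and Psme2 did not pass an unadjusted p of 0.05, with 0.40 ± 0.34 and -0.15 ± 0.46 in TG and -1.18 ± 0.74 and 0.31 ± 0.71 in DRG.

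Of 12 genes for proteasome transcription and substrate shuttling, 3 were higher in females in TG at an unadjusted p under 0.05 (10.9% of all genes). They were Nfe2l1, Nploc4 and Ubqln4. At the same threshold 2 (Ngly1 and Ufd1l) were higher in males in TG (9.79%) and 1 (Ufd1l) in DRG (8%). Nfe2l1 was at 436, 434 and 325 CPM in female and 252, 294 and 307 CPM in male TG, and at 418, 385 and 407 in female and 314, 290.4 and 322 CPM in male DRG. It was without overlap in both ganglia with higher levels in females (0.54 ± 0.22, adjusted p = 0.212 in TG, and 0.39 ± 0.24, adjusted p = 0.550 in DRG). After the GC and length correction its values were -0.07 and 0.08.

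Among ubiquitin and E1 or E2 enzyme genes, 4 of 10 tested were higher in males in TG at an unadjusted p under 0.05 (9.79% of all genes). They were Ubb, Ube2d3, Ube2k and Ube2n, while 1 other gene of the list was higher in females (10.9%). In DRG 3 of 9 tested were higher in males (8%), namely Ubb, Ube2d3 and Ube2n, and 0 in females (3.85%). The polyubiquitin gene Ubb was at -0.91 ± 0.38 in TG and -0.96 ± 0.34 in DRG.

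Of 20 genes for antigen processing and the interferon response, which the immune subunits serve, 2 met the criteria in TG, both higher in females (5.15% of all genes). They were the peptide transporter Tap2 and the loading factor Tapbp. Tap2 was at 66.2, 53.3 and 16.8 CPM in female and 15.8, 21.9 and 23.4 CPM in male TG (1.21 ± 0.44, adjusted p = 0.181), and female TG 3 lay within the male range. No gene of this list had an unadjusted p under 0.05 for sex in DRG (11.8% of all genes). Tap1, which neighbours Psmb8 and Psmb9 in the MHC region (chr17, mm9), was at 1.06 ± 0.57 in TG (adjusted p = 0.307) and -0.07 ± 0.44 in DRG. Between the ganglia, the MHC class I gene H2-K1 alone of this list had an unadjusted p under 0.05 (TG over DRG 0.44 ± 0.20, adjusted p = 0.538), against 8.83% of all genes. After the GC and length correction Tap2 was at 0.42 and Tapbp at 0.47 in TG.

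Markers of cell types that the fraction could hold are given beside the subunits. Their median sex difference in TG (log2, female over male) was 0.79 for 10 macrophage, 0.85 for 6 fibroblast and 0.46 for 8 endothelial markers. It was 1.05 for 6 Schwann cell and -0.09 for 10 sensory neuron markers. In DRG these medians were 0.57, 0.70, 1.03, 0.60 and -0.13, in the same order. Of the 6 Schwann cell markers, 1 was below 0 in each ganglion. Their summed level was 2339 ± 430 CPM in female and 2142 ± 366 in male TG (SD, n = 3). In DRG it was not higher in females, with 2311 ± 489 against 2348 ± 134 CPM. All 10 macrophage and all 6 fibroblast markers were above 0 in both ganglia, whereas 7 satellite glia markers had medians of 0.20 in TG and 0.19 in DRG. Of 3 red blood cell markers, 2 were at 0 in all libraries, and the summed level was 2.8 to 20.3 CPM. Summed sensory neuron markers were lower in female TG 1 and 2 and in female DRG 1 and 2 (5038 to 5271 CPM) than in the other female libraries (7609 and 9292 CPM). In males they were at 7720 and 7905 CPM in male TG 1 and 2, 5748 in male TG 3 and 8030 to 9121 in male DRG, with group means of 6015 ± 1381 in female and 7124 ± 1195 in male TG, and 6525 ± 2399 in female and 8647 ± 559 in male DRG (SD, n = 3). The part of cell composition in the sex difference of the subunits was not tested.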

How the data were processed

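RNA of Percoll-enriched sensory neuron fractions was depleted of ribosomal RNA by RNase H and sequenced as stranded 50-base single reads, per the study's methods. Reads were demultiplexed with bcl2fastq, aligned to mm9 with TopHat2 and counted per gene with HTSeq. Versions, annotation and strand setting were not given in the sources used here. The authors deposited these counts per gene, not normalized, as 1 file per library. The 5 summary lines of each file were left out of library sizes and tests, and reads outside genes were taken from them.

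Counts were analysed in R 4.3.3 with edgeR 4.0.16 (filterByExpr, TMM factors, quasi-likelihood F-test, Benjamini-Hochberg adjustment over all genes tested). The sexes were compared within a ganglion over its 6 libraries. TG against DRG and the interaction were fitted over all 12. DESeq2 1.42.0 was an alternative. Genes were also called by criteria adapted from the study (unadjusted p under 0.05, fold change above 2, CPM above 1 in the higher sex), with CPM in place of the study's RPKM threshold, which was an alternative. Levels are TMM-scaled CPM, and RPKM is CPM per kilobase of the longest coding transcript in the mm9 annotation, to which 21691 of the 22609 genes matched. The GC and length correction smoothed the log2 CPM deviations of each library by loess on exon GC content and log2 exon-union length (span 0.3). The models were tested on simulated data.

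The members, gene lists, markers and motifs were chosen with earlier results of these data known. Genes named with values are Psmb5 to Psmb10, Psmd10, the 3 members with the smallest p in each direction of each comparison, members past these criteria in both ganglia, the highest and lowest members per length, members below the filter, list genes past a call, and Psme1, Psme2, Pomp, Nfe2l1 and Tap1. Some genes of the pathway lists are not reported here. Members named only as part of a group or a count are outside this rule. Other settings and left-out libraries were tried as alternatives. Libraries were assigned to groups by their titles. A count of 0 was read as allowing up to 3 counts.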

Additional observations from a re-analysis of the deposited data

How the results depend on the processing

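The male-higher counts by the adapted criteria depended on the processing, while the median of the members stayed below 0 in TG and DRG in every setting run. In TG the count of 4 (2.26% of all genes) became 2 without TMM factors (1.16%) and 0 with the GC and length correction (0.651%). It was 2 with the replicate block and that correction together (0.665%). With the libraries numbered 1 and 2 alone it was 25 (11.6% of all genes), and at a fold change above 1.5 it was 18 (9.04%). When single libraries were left out it ranged from 1 (1.05%) to 19 (8.56%). In DRG the count of 12 (2.96% of all genes) became 2 without TMM factors (1.18%). It was 0 with block and correction (0.972%) and 1 with the correction alone (0.957%). With libraries 1 and 2 it was 19 (7.40% of all genes), and at a fold above 1.5 it was 20 (7.94%). When single libraries were left out it ranged from 5 (1.51% and 1.30%) to 17 (5.57%). Male-higher counts with the replicate block alone were 5 in TG (2.28% of all genes) and 10 in DRG (3.17%). The TG median was -1.22 with libraries 1 and 2. The DRG median was -0.32 with the correction, -0.34 with block and correction and -1.06 with libraries 1 and 2. At an adjusted p under 0.05, libraries 1 and 2 alone gave 33 subunits in TG, beside 44.1% of all genes, and 22 in DRG, beside 10.1%. Subunits with an unadjusted p under 0.05 between TG and DRG numbered 10 with the replicate block, against 2. The share of all genes at this threshold with the block is not given here. At an adjusted p under 0.05 there were 0 subunits in both fits, while all genes called went from 143 (0.964%) to 562 (3.79%). The immune to constitutive difference in TG was 0.23 with the correction. The cause of these shifts was not tested.

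Among single subunits near 0 the sign turned. For sex in TG, Psmb10 was 0.067 without TMM factors and 0.050 with the correction, and -0.26 to 0.12 when single libraries were left out. Psmb9 was -0.61 with the replicate block, -0.36 with the correction and -1.06 with both, and -1.46 to 0.71 with libraries left out. Psmd3 was -0.046 with the correction and -0.066 with block and correction. For sex in DRG, Psmb9 was 0.22 without TMM factors, 0.23 with libraries 1 and 2, and -1.03 to 0.43 with libraries left out, and Psmb8 was -0.44 to 0.43. For TG against DRG, leaving out libraries gave -0.16 to 0.28 for Psmb10, -0.0073 to 0.35 for Psmb5 and -0.99 to 0.58 for Psmb9.

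Correlations of same-numbered libraries' deviations across genes were -0.13, 0.01 and -0.12 between the sexes in TG, 0.11, 0.02 and 0.19 in DRG, and between TG and DRG 0.03, 0.12 and 0.21 in females and 0.04, 0.12 and 0.22 in males. Not every pair passed 0.1 in any comparison, so the numbers were not taken as pairs, although numbers 2 and 3 correlated best with their own number between TG and DRG in both sexes. Over all genes, the chi-square per degree of freedom of scaled counts was 25.7 to 47.7 among the libraries numbered 3. It was 54.1 to 110 between each of them and the other libraries of its group. The main models did not account for this likeness across sex and ganglion. Exon-union lengths, lengths of unique windows and leaving out Psma8 were chosen after seeing the data and moved no ratio past its SD and no count. Psma8, Psmb11 and Psmb9 were limited by their counts.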
